A study of Danio rerio with 3 samples.

Results

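Whole zebrafish larvae (Danio rerio) exposed to shoreline oil emulsion in a later stage of development were set against larvae exposed to it earlier. The values are log2 differences between 2 of the 3 arrays of the study, late window minus early window. They cover every gene that has a probe set with a single gene symbol in the platform annotation. A gene was kept when its value on the highest of the 3 arrays reached 7.21, the median of all deposited values, which left 5492 of 8793 genes. The other 3301 genes were too dim on all arrays. A gene read by more than 1 probe set is represented by the brightest on average over the 3 arrays.

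The late window was an exposure at 48 to 96 h post-fertilization (hpf), followed by 96 h in clean medium. The early window was an exposure at 0 to 48 hpf, followed by 144 h in clean medium. Control larvae were kept in medium with no emulsion. In the exposed groups, 30 embryos shared a cup holding 100 ml of medium over a layer of 250 mg of emulsion from the Gulfport shoreline, a mixture that contained alkanes and polynuclear aromatic hydrocarbons (PAHs) together with seawater and sand. RNA of all groups was taken at 192 hpf from whole larvae, so both exposed groups were the same age and had been exposed for 48 h each. The stage at exposure and the time since exposure differ together between them and cannot be told apart. Each group has 1 array, and the sources used here do not give the number of larvae behind it. An exposure at 96 to 192 hpf is not analysed here. Without replicates no test could be run and no p-value is given, and "higher" and "lower" describe these arrays.

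Fish sense planar aromatic hydrocarbons through the aryl hydrocarbon receptor (AHR), a transcription factor that pairs with ARNT and switches on cytochrome P450 enzymes of the CYP1 family. The CYP1 enzymes oxidise the compounds, and transferases then attach sulfate, glucuronate or glutathione so that they can be excreted. Nrf2, a second sensor, is held back by Keap1 and turns on genes for glutathione and NADPH supply when reactive compounds accumulate. In zebrafish the liver, exocrine pancreas, intestine and jaw skeleton grow and differentiate largely around and after hatching, whereas the body axis, heart tube and eye field are laid down earlier.

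The arrays were alike in their medians, 7.23 for the late window, 7.20 for the early window and 7.22 for control. The processing of the deposited values equalises the arrays' distributions, so this likeness does not measure how alike the RNA samples were. Directions hold relative to the median gene. The 18 probe sets for bacterial spike-in transcripts, added at hybridisation, averaged 0.51 higher on the late array than on the early array (SD 0.19 across probe sets, range 0.18 to 0.87). On a scale set by the spike-ins every difference is 0.51 lower, the median gene lies at -0.52, and any difference between 0 and 0.51 changes sign. The spike-ins averaged 10.17 on the late array, 9.66 on the early array and 10.16 on the control array, so the early array was the one that stood apart. On their scale late minus control moves by less than 0.01 for every gene and early minus control is 0.50 higher, with the median gene of the early array at 0.50 above control. Where an array is called high, low or level with another in what follows, the deposited scale is meant. The actin signal at the 3' end exceeded that at the 5' end by 2.28, 2.02 and 2.12 on the late, early and control arrays, and the gapdh signal by 0.342, 0.432 and 0.379. Their part in the differences was not tested. No replicate array measures technical spread. Over 717 genes with several bright probe sets, the difference varied around the gene's mean with an SD of 0.13 between probe sets. The spike-in probe sets varied more, with the SD of 0.19 given above.

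Most genes stood at almost the same level on both exposed arrays. The median difference was -0.01, the SD across genes was 0.22, and the middle 95% of genes lay between -0.38 and 0.42. Levels correlated at r = 0.989 across genes, which are not independent replicates. Of the 5492 genes, 2541 (46.3%) were higher and 2951 (53.7%) lower by any amount, and 5396 (98.3%) were within 1.5-fold. The remainder leaned towards the late window. At 2-fold, a log2 difference of 1, 18 genes (0.328%) were higher and 4 (0.0728%) lower, so 81.8% of the genes past 2-fold were higher. On the spike-in scale the counts were 6 and 58, or 9.38% higher. At 1.5-fold, 67 genes (1.22%) were higher and 29 (0.528%) lower, and at 3-fold 5 (0.091%) were higher and 1 (0.0182%) lower. These shares over all genes are the ones to set beside the list counts below. For higher or lower by any amount they are 46.3% and 53.7%.

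**Figure D1:**
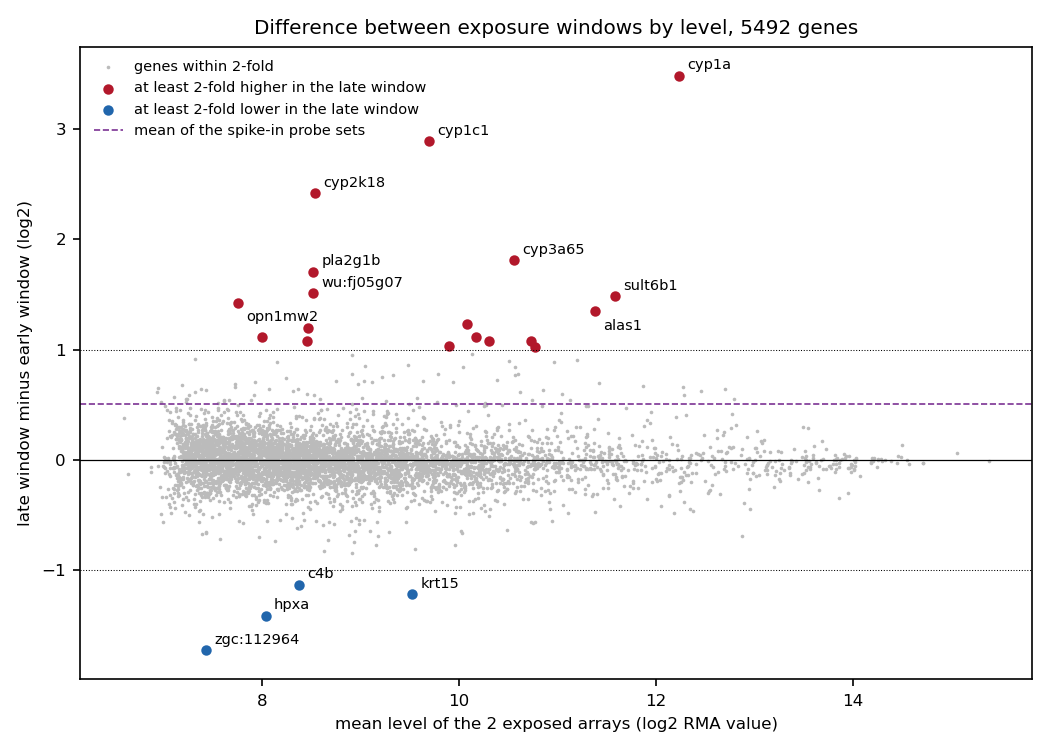
Difference between late and early window (vertical axis, log2) against the mean level of the 2 exposed arrays (horizontal axis, log2 RMA value), 1 point per gene, 5492 genes. Most points lie within 0.42 of 0, and 11 of the 18 genes with a late-window excess of 2-fold or more are among the 1373 brightest genes. The dashed purple line marks the spike-in mean at 0.51: differences between 0 and 0.51 would be negative on the spike-in scale.

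The excess was largest among the brightest genes, but did not rise steadily with level. Among the 1373 brightest genes, with mean levels of 9.57 and above, 31 genes were past 1.5-fold in favour of the late window and 5 in favour of the early window. Among the 1373 dimmest genes the same counts were 11 and 5. In the sets between, they were 14 and 6 at levels of 7.82 to 8.53, and 11 and 13 at levels of 8.53 to 9.57. The SD of the difference was 0.25 in the brightest and 0.20 in the dimmest of these sets. Of the 67 genes at least 1.5-fold higher, 6 reached the filter on the late array alone. Of the 29 at least 1.5-fold lower, 1 reached it on the early array alone. For these genes a high value on that array was a condition for being counted, so counts near the filter partly follow from it.

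The largest differences were in 4 cytochrome P450 genes. The CYP1 enzyme gene cyp1a read 13.98 on the late array, 10.50 on the early array and 9.30 on the control array, an 11.2-fold difference between windows. Its relative cyp1c1 read 11.15 in the late window, 8.26 in the early window and 7.60 in control (7.41-fold between windows). For both genes the late array was far above the other arrays, and the early array lay above control by a smaller step. The CYP2 enzyme gene cyp2k18 had the same order, at 9.74 in the late window, 7.33 in the early window and 6.73 in control (5.33-fold). By contrast cyp3a65, a CYP3A enzyme gene, read 11.46 in the late window but 9.65 in the early window, level with 9.66 in control (3.51-fold).

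Another 7 of the 18 genes encode other enzymes or electron carriers, a grouping made after their values were seen. The sulfotransferase gene sult6b1 read 12.33 in the late window, 10.84 in the early window and 10.81 in control, and alas1, which encodes the first enzyme of heme synthesis, 12.06, 10.71 and 10.55 on those arrays. Cytochrome b5 (cyb5a), an electron donor to P450 enzymes, was at 10.70 in the late window, 9.47 in the early window and 9.35 in control. In these 3 genes the early array stood at most 0.16 above control and the late array more than 1 above it. The malic enzyme gene me1, a source of NADPH, read 9.07 in the late window, 7.87 in the early window and 7.84 in control. The peroxidase gene prdx1 read 10.85, 9.77 and 9.44 on the late, early and control arrays. The carboxylesterase gene ces2b (11.27 late, 10.20 early, 10.12 control) and the hydroxylase-domain gene faxdc2 (11.29 late, 10.27 early, 10.17 control) complete this set. In all 7, as in cyp1a, cyp1c1 and cyp2k18, the control array was the lowest of the 3, and it stays the lowest on the spike-in scale.

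The other 7 genes at least 2-fold higher in the late window were of different kinds. The pancreatic phospholipase gene pla2g1b read 9.37 in the late window, 7.67 in the early window and 8.75 in control, and the bile salt-activated lipase gene cel.1 10.42, 9.38 and 10.23 on those arrays. In both of these the early array was the low one, and control lay nearer the late array. The ependymin-like gene epdl2 had that pattern too (10.73 late, 9.62 early, 10.25 control), as did the clone-named genes si:dkey-14d8.6 (8.99 late, 7.92 early, 8.77 control) and zgc:193593 (8.56 late, 7.44 early, 8.05 control). The green cone opsin gene opn1mw2 was at 8.47 in the late window, 7.05 in the early window and 7.17 in control. It has near-identical paralogs, so its probe set may not read it alone, and of the 18 genes it was the only one that reached the filter on the late array alone. The clone-named wu:fj05g07 read 9.28 in the late window, 7.76 in the early window and 7.83 in control.

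The genes past 2-fold on the lower side numbered 4. The clone-named zgc:112964 read 6.57 in the late window, 8.29 in the early window and 8.19 in control, so the late array was the low one and was itself under the level at which genes were kept. Hemopexin (hpxa), a plasma protein that binds free heme, read 7.33 in the late window, 8.74 in the early window and 6.75 in control. The keratin gene krt15 read 8.92, 10.13 and 10.51 on the late, early and control arrays, with the late array again low. The complement component gene c4b read 7.81 in the late window, 8.94 in the early window and 7.84 in control. In hpxa and c4b the early array was the one farther from control.

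**Figure D2:**
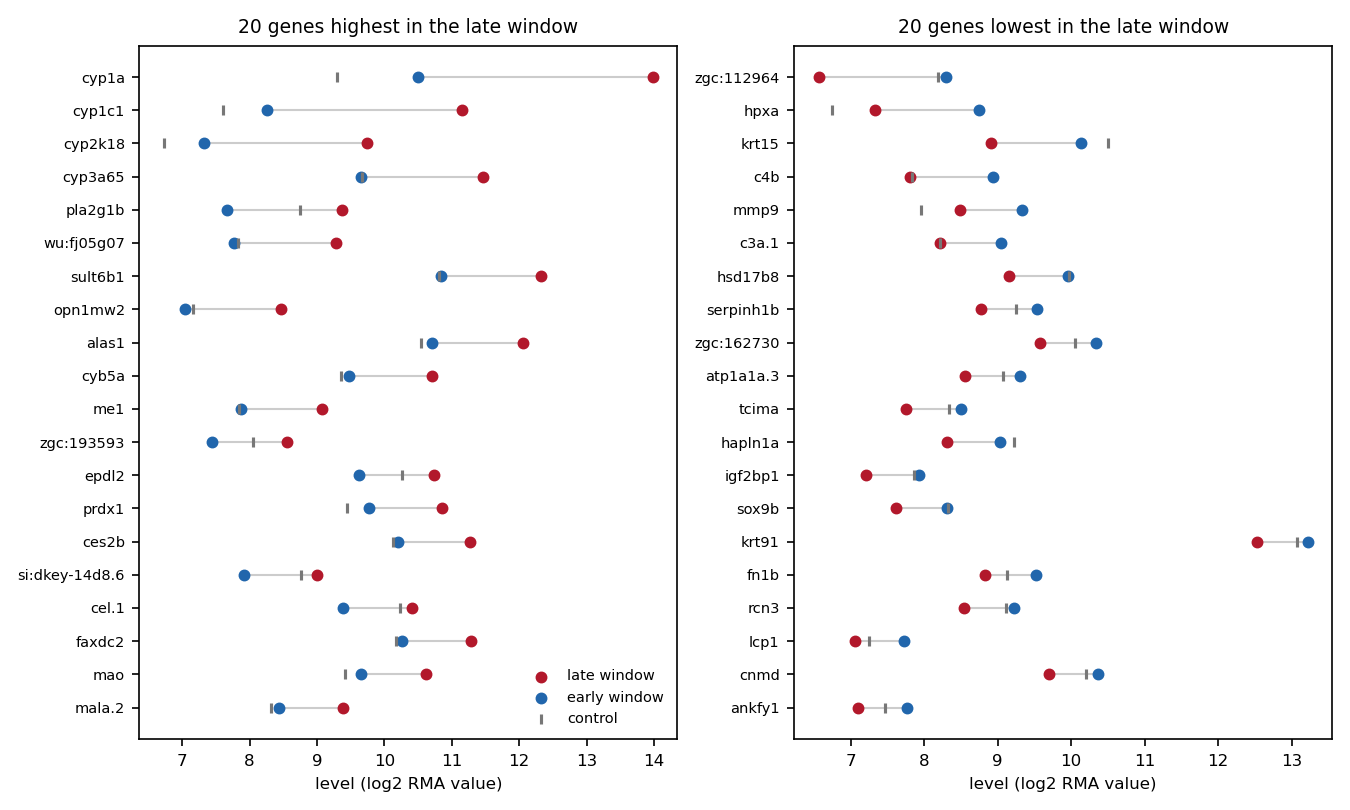
Levels (horizontal axis, log2 RMA value) on the late, early and control arrays of the 20 genes highest and the 20 genes lowest in the late window relative to the early window, 1 row per gene. In cyp1a the late array reads 13.98, the early array 10.50 and control 9.30. In hpxa and c4b the early array stands above both others.

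At the 2-fold limit the genes just inside were cel.1 (1.03) and faxdc2 (1.02), and those just outside were mao, monoamine oxidase (0.96), and mala.2 (0.95). On the lower side krt15 (-1.21) and c4b (-1.13) were inside, and mmp9 (-0.85) and c3a.1 (-0.82) outside. Values near the limit were close together on the higher side and had a wider gap between c4b and mmp9 on the lower side.

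The control array entered the filter and the mean that picked the brightest probe set of a gene. Beyond that it took no part in choosing or ordering the genes, and was set beside them. Of the 18 genes at least 2-fold higher in the late window, control was nearer to the early array in 13 (72.2%), lay below both exposed arrays in 10 and between them in 8. Of the 67 genes at least 1.5-fold higher, control was nearer to the early array in 44 (65.7%). For the 29 genes at least 1.5-fold lower it was nearer to the early array in 21 (72.4%). The same share over all 5492 genes was 58.0%. These positions depend on the scale: on the spike-in scale control was nearer to the early array in 16 of the 18, 58 of the 67 and 7 of the 29 genes, beside 7.63% of all genes.

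The AHR system was higher in the late window at each level that the array reads, on the deposited scale. The receptor gene ahr2, which encodes the main AHR of zebrafish for PAHs, read 9.52 in the late window, 8.99 in the early window and 8.75 in control. The gene tiparp, whose protein represses the AHR and is one of its targets, read 9.31 in the late window, 8.53 in the early window and 8.32 in control. The quinone reductase gene nqo1 read 9.83, 9.44 and 9.29 on the late, early and control arrays. In each of these the arrays stood in the same order as for cyp1a and cyp1c1. The difference in nqo1, 0.39, is -0.12 on the spike-in scale, whereas that of tiparp (0.78) remains above 0. For ahr2 (0.53) the windows are nearly level on that scale, 0.76 above control on the late array and 0.74 on the early array. A second AHR gene, ahr1a (5.52 late and 4.91 early), and the CYP1 gene cyp1d1 (6.57 late, 6.27 early, 5.96 control) were too dim to be kept. No probe set carried the single symbol of cyp1b1, cyp1c2, ahr1b or the AHR repressor genes ahrra and ahrrb.

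The CYP2 and CYP3 list, enzymes of drug and steroid oxidation and the reductase that feeds them electrons, had 10 kept members. All 9 CYP2 and CYP3 genes among them were higher in the late window on the deposited scale, and the reductase gene pora, named here to complete the list, differed by -0.15. The median of the 10 was 0.41, beside -0.01 over all genes, and it was -0.10 on the spike-in scale. It ranged over 0.26 to 0.69 with other normalizations, filters and choices of probe set. After cyp2k18 and cyp3a65, cyp2ad2 read 9.32 in the late window, 8.63 in the early window and 9.13 in control, and its other bright probe set differed by 0.55. A smaller difference was in cyp2aa4, at 7.46 in the late window, 7.04 in the early window and 7.07 in control. For cyp2ad2 the early array was the low one, with control nearer to the late array. All 10 members were above control on the late array, and 4 on the early array (10 on the spike-in scale). Of 24 members with a probe set, 14 were too dim, and of the 10 kept, cyp2aa4 reached the filter on the late array alone. The 9 kept P450 genes of other families split into 4 higher and 5 lower (median -0.05). Among them were cyp51 of sterol synthesis at -0.32, cyp26a1 of retinoic acid breakdown at -0.20, cyp20a1 at -0.18 and cyp46a1.4 at 0.17. Of these 9, cyp4v2b, on the higher side, reached the filter on the late array alone.

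Conjugating enzymes were mixed. Of 7 glutathione transferases, 5 were higher in the late window (median 0.16, -0.35 on the spike-in scale). The omega-class gsto2 read 11.65 in the late window, 10.75 in the early window and 10.69 in control, the theta-class gstt1b 9.99, 9.28 and 9.13, and the pi-class gstp1.2 13.03, 12.38 and 12.21. The mu-class gstm.1 had the opposite order, 9.40 in the late window, 9.79 in the early window and 9.86 in control. Of 9 genes kept from the list of sulfo- and glucuronosyltransferases, 7 encode sulfotransferases and the others, papss2b and ugdh, enzymes that make their substrates, while no glucuronosyltransferase was kept. Of the 9, 5 were higher (median 0.09, -0.42 on the spike-in scale). Next to sult6b1 stood ugdh, which makes UDP-glucuronate, at 9.59 in the late window, 8.84 in the early window and 8.56 in control. The brain sulfotransferase gene sult4a1 differed by 0.31 and sult2st2 by -0.16. All 5 kept ABC transporter genes, which encode membrane pumps, were higher in the late window on the deposited scale (median 0.21, -0.30 on the spike-in scale), from abcb5 (0.43), the peroxisomal abcd3a (0.29), abca3b (0.21) and abca12 (0.19) to the lowest at 0.01, abcb5 having reached the filter on the late array alone. Nuclear receptors for xenobiotics and bile acids, of which 4 were kept, lay between -0.21 (nr0b2a) and 0.16 (hnf4a).

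Genes of the Nrf2 and redox list were higher in the late window in 21 of 25 cases on the deposited scale. Their median was 0.15, or -0.36 on the spike-in scale. Besides redox enzymes the list includes nfe2l2a, which encodes Nrf2, and keap1a, which encodes a Keap1. The differences were uneven: 5 of the 25 were past 1.5-fold on the higher side, beside 1.22% of all genes, and the lowest was -0.06. Besides me1 and prdx1, gsr, glutathione reductase, read 9.47 in the late window, 8.62 in the early window and 8.58 in control. The pentose phosphate enzyme gene pgd, another source of NADPH, read 10.99 in the late window, 10.21 in the early window and 10.06 in control. In these 4 the late array was the high one. The other gene past 1.5-fold was the regulator keap1a, at 8.75 in the late window, 8.16 in the early window and 8.20 in control. The Nrf2 gene nfe2l2a read 9.47, 9.06 and 9.36 on those arrays. Both are named here with their values known. On the late array 23 of the 25 were above control, and on the early array 17 were (25 on the spike-in scale).

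Heme genes moved apart. Of 11 genes of heme synthesis and handling, 6 were higher in the late window and 5 lower (median 0.19, -0.32 on the spike-in scale). Their extremes were alas1 at 1.35 and hpxa at -1.41, with cyb5a at 1.23 and the biliverdin reductase gene blvrb at 0.27. Of the list of metallothioneins and metal carriers no metallothionein was kept. The 6 kept iron and copper carriers and stores had a median of 0.02, with the ferritin genes fthl27 at 0.23 and fthl30 at 0.15, the iron exporter gene slc40a1 at -0.14 and ceruloplasmin (cp) at -0.12.

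Exocrine pancreas genes, which encode the digestive enzymes of acinar cells, were higher in the late window in 16 of 16 cases, beside 46.3% of all genes. Their median was 0.58 and their lowest value 0.13. Of the 16, 8 were past 1.5-fold, beside 1.22% of all genes. The median stayed between 0.55 and 0.60 with other normalizations, filters and choices of probe set, and was 0.07 on the spike-in scale. After pla2g1b and cel.1, the amylase gene amy2a read 10.96 in the late window, 10.19 in the early window and 11.11 in control. The zymogen granule gene sycn.2 read 10.75 in the late window, 10.02 in the early window and 10.76 in control. The early array was the lowest of the 3 for all 16 genes, and on the late array 7 of the 16 were above control. The median against control was -0.01 on the late array and -0.60 on the early array. With spike-in scaling these medians are -0.02 and -0.10, and the early array is the lowest for 10 of the 16 genes. In whole larvae, fewer cells of a type and less RNA per cell cannot be told apart. The 9 kept genes of the endocrine pancreas, which makes insulin and other hormones, did not share this pattern. They split into 5 higher and 4 lower (median 0.10, -0.41 on the spike-in scale). The somatostatin genes sst2 and sst1.1 were at -0.25 and 0.20, and the islet regulators nkx2.2a and pax6b at 0.24 and 0.16. The insulin gene ins and the glucagon gene gcga, named here for comparison after their values were seen, were at 0.10 and -0.12. The list includes neurod1, scg2a, scg3, nkx2.2a and pax6b, which are not restricted to the pancreas.

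Intestinal genes were higher in the late window in 16 of 18 cases on the deposited scale (median 0.21, -0.30 on the spike-in scale). Of the 18, the chitinase gene chia.6 reached the filter on the late array alone. The bile acid transporter gene slc10a2 read 8.60 in the late window, 7.71 in the early window and 7.92 in control. The chitinase gene chia.2 read 11.41, 10.53 and 10.69 on the late, early and control arrays, and the ileal bile acid-binding gene fabp6 11.77, 11.07 and 10.93. The late array was the high one in each. The astacin protease gene c6ast3 had a low early array instead, with 7.75 in the late window, 7.12 in the early window and 8.07 in control. Fatty acid oxidation and peroxisome genes leaned the same way, 23 of 29 higher on the deposited scale (median 0.09, -0.42 on the spike-in scale), with the phytanoyl-CoA hydroxylase gene phyh at 0.46, the carnitine carrier gene slc25a20 at 0.33 and the acyl-CoA dehydrogenase genes acadvl at 0.32 and acadm at 0.30. Of 24 apolipoproteins and lipid carriers 19 were higher on that scale (median 0.13, -0.38 on the spike-in scale), including fabp10a, the fatty acid-binding protein of liver, at 12.58 in the late window, 11.99 in the early window and 11.76 in control. Sterol and fatty acid synthesis genes were higher in 6 and lower in 11 of 17 cases (median -0.09). Apart from me1, the largest differences in that list were negative, in msmo1 (-0.48) and insig1 (-0.37) of the sterol pathway and in the fatty acid elongase gene elovl5 (-0.38).

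Liver genes split, with 13 of 30 higher in the late window and 17 lower (median -0.01). The largest differences were in hpxa, ces2b, tat and fabp10a. Tyrosine aminotransferase (tat) read 7.27 in the late window, 6.62 in the early window and 6.75 in control, and was kept through the late array alone. The fibrinogen genes fgb, fga and fgg, added here with their values already known, were next at the lower end, at -0.48, -0.47 and -0.42. Against control, 27 of the 30 were higher on the late array and 26 on the early array (29 on the spike-in scale).

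**Figure D3:**
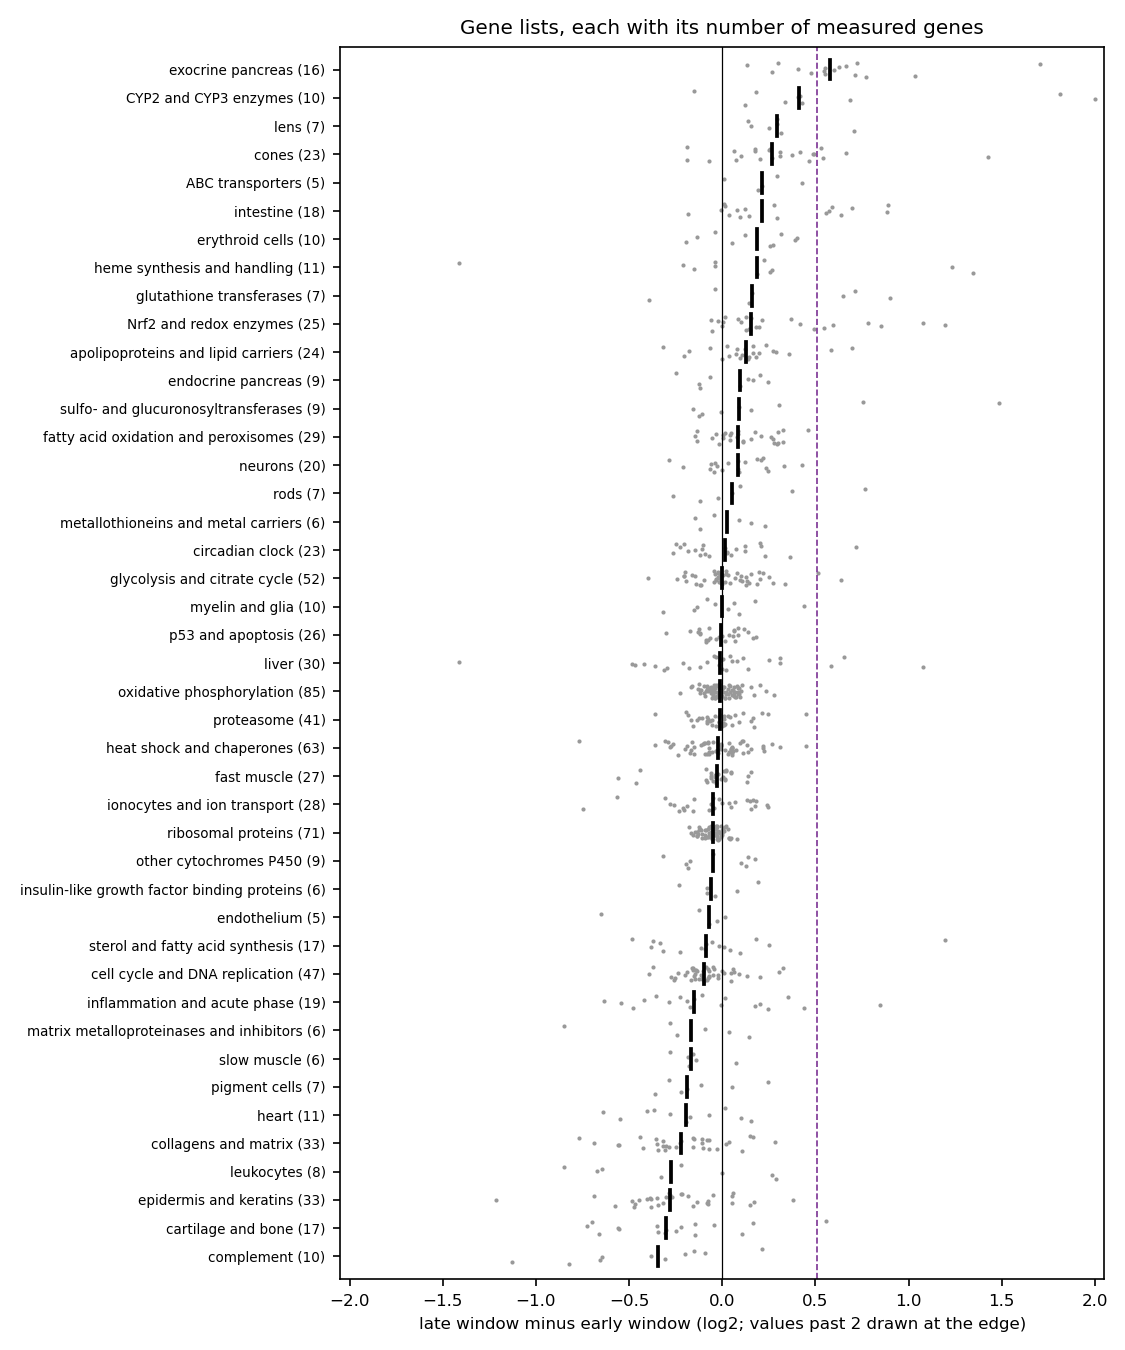
Differences between late and early window (horizontal axis, log2) in the 43 gene lists with at least 5 kept genes, 1 point per gene, a black bar at each median, and values past 2 drawn at the edge. Exocrine pancreas has 16 of 16 genes above 0, while complement, cartilage, matrix and epidermis lie mostly below 0. The dashed purple line marks the spike-in mean at 0.51: scaled on the spike-ins, exocrine pancreas has a median of 0.07 and all other positive medians drawn turn negative.

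Complement genes, which encode plasma proteins that tag and lyse microbes, were lower in the late window in 9 of 10 cases, with a median of -0.34 and a range of -0.38 to -0.18 over the other settings. After c4b, c3a.1, a copy of the central component C3, read 8.22 in the late window, 9.04 in the early window and 8.21 in control. The genes c6.2 and c9 of the lytic pore read 7.10 and 9.70 in the late window, 7.76 and 10.35 in the early window, and 6.96 and 9.66 in control. In these 4 genes the early array was the high one and the late array was level with control or within 0.15 of it. Of the 10, c6.2 reached the filter on the early array alone, so a high early value was a condition for its being counted. The 2 other bright probe sets of c9 differed by -0.82 and -1.08. Over the list, the median against control was 0.02 on the late array and 0.39 on the early array, or 0.01 and 0.89 on the spike-in scale.

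Genes of inflammation and the acute phase were lower in the late window in 12 of 19 cases, beside 53.7% of all genes. Their median was -0.15, between -0.21 and 0.01 over the other settings. The transcription factor genes fosab (10.18 late, 10.81 early, 10.64 control) and cebpb (9.72 late, 10.20 early, 9.60 control) and the chemokine gene cxcl12a (8.77 late, 9.31 early, 9.12 control) were lower. The C-reactive protein gene crp3 went the other way, with 10.99 in the late window, 10.14 in the early window and 10.12 in control. Thus the acute-phase genes did not share a direction. Of 18 leukocyte genes with a probe set, 8 were kept, 5 of them lower, again beside 53.7% of all genes. Their median was -0.28, between -0.49 and 0.03 over the other settings. Gelatinase (mmp9), an enzyme of neutrophils and of injured skin, read 8.49 in the late window, 9.34 in the early window and 7.96 in control. The lysozyme gene lyz read 8.62, 9.27 and 8.95 on the late, early and control arrays, the leukocyte actin-bundling gene lcp1 7.05, 7.73 and 7.25, and coro1a, an actin regulator, 7.28, 7.61 and 7.20. The early array was the highest in all 4. The other kept members, named here to complete the list, were apoeb (0.29), cpa5 (0.26), cyba (0.00) and mpx (-0.22). The gene cpa5 is also counted in the exocrine pancreas list. The second bright probe set of mpx differed by -0.48, and a dim one by 1.66. Matrix metalloproteinases and their inhibitors had a median of -0.17 over 6 genes, with mmp13a at 8.37 in the late window, 8.61 in the early window and 7.45 in control, and timp2a, mmp9 and mmp11b at -0.28, -0.85 and 0.14. In mmp13a both exposed arrays lay far above control, and the difference between them was the smaller part.

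Genes of the cone photoreceptor list were higher in the late window in 20 of 23 cases on the deposited scale, with a median of 0.27 that is -0.24 on the spike-in scale. The list includes rbp4l, shared with the liver list, and rpe65a, rlbp1a, rbp3 and crx, which are not restricted to cones. All of these but crx were among the higher ones. After opn1mw2, the phosphodiesterase subunit gene pde6ha read 12.61 in the late window, 11.94 in the early window and 12.39 in control, and its other bright probe set differed by 0.84. The cyclase activator gene guca1c read 8.15, 7.61 and 8.43 on the late, early and control arrays, and six7, a regulator of cone opsins, 7.49, 6.97 and 7.41. Apart from opn1mw2, in which control was close to the early array, the early array was the low one in these genes. Across the cone list 4 of 23 genes were above control on the late array and 2 on the early array. Scaled on the spike-ins the counts are 4 and 13, and the early array is the lowest for 1 of the 23. In the rod list 4 of 7 genes were higher and 3 lower (median 0.05). The higher ones were the outer-segment genes prph2b (0.77) and prph2a (0.37), with rom1b (0.09) and gngt1 (0.05). The lower ones were the G protein subunit genes gnb1b (-0.26), gnat1 (-0.12) and gnb1a (-0.02). Of these, gnb1a, gnb1b, prph2a and prph2b are not restricted to rods, so the list does not set rods apart from cones. Both exposed arrays were low for gnat1, which read 9.81 in the late window, 9.93 in the early window and 10.70 in control. All 7 kept lens genes were higher in the late window on the deposited scale (median 0.29, -0.22 on the spike-in scale), with the crystallin gene cryaa at 8.28 in the late window, 7.57 in the early window and 8.16 in control, and with bfsp2, lctla and crygm2c at 0.32, 0.29 and 0.29, each of these 3 negative on the spike-in scale.

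Most genes of the epidermis list were lower in the late window. Of 33 epidermal and keratin genes 27 were lower, with a median of -0.28 that ranged over -0.30 to -0.22 with the other settings. After krt15, krt91 read 12.53 in the late window, 13.22 in the early window and 13.07 in control, and its other bright probe set differed by -0.65. The annexin gene anxa1c read 10.47, 11.04 and 11.16 on the late, early and control arrays, and icn2, a calcium-binding protein of skin, 11.94, 12.43 and 12.24. The late array was the lowest in each. The 6 members higher in the late window, named here to complete the list, were krt1-19d (0.38), grhl1 (0.17), cldn7b (0.15), zgc:92242 (0.05), evplb (0.05) and krt97 (0.05). The list includes krt8, krt18a.1, krt18b, epcam and cdh1, which are not restricted to skin. On the late array 6 of the 33 were above control, and on the early array 21 were (33 on the spike-in scale).

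Most genes of the skeleton list had the same direction. Cartilage and bone genes were lower in the late window in 14 of 17 cases, with a median of -0.30 and a range of -0.33 to -0.15 over the other settings. The cartilage link protein gene hapln1a read 8.31 in the late window, 9.04 in the early window and 9.22 in control, and its other bright probe sets differed by -0.76 and -0.54. The gene of the chondrocyte transcription factor sox9b read 7.62 in the late window, 8.32 in the early window and 8.33 in control, and chondromodulin (cnmd) 9.70, 10.36 and 10.20. The collagen IX gene col9a3 had 10.46 in the late window, 11.02 in the early window and 11.04 in control. In these genes the late array was the low one and the early array close to control. The 3 members higher in the late window on the deposited scale, named here to complete the list, were spp1 (0.56), runx3 (0.16) and col10a1a (0.11). The median of the list against control was -0.31 on the late array and -0.01 on the early array. On the spike-in scale it is -0.32 on the late array and 0.49 on the early array, so the closeness of the early array to control holds on the deposited scale only. Collagens and other matrix genes, some of them shared with the cartilage list, were lower in 27 of 33 cases (median -0.22). Among them serpinh1b, the collagen chaperone, read 8.77 in the late window, 9.54 in the early window and 9.25 in control. The fibronectin gene fn1b read 8.83, 9.52 and 9.13 on those arrays. The early array was above control and the late array below it in both.

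**Figure D4:**
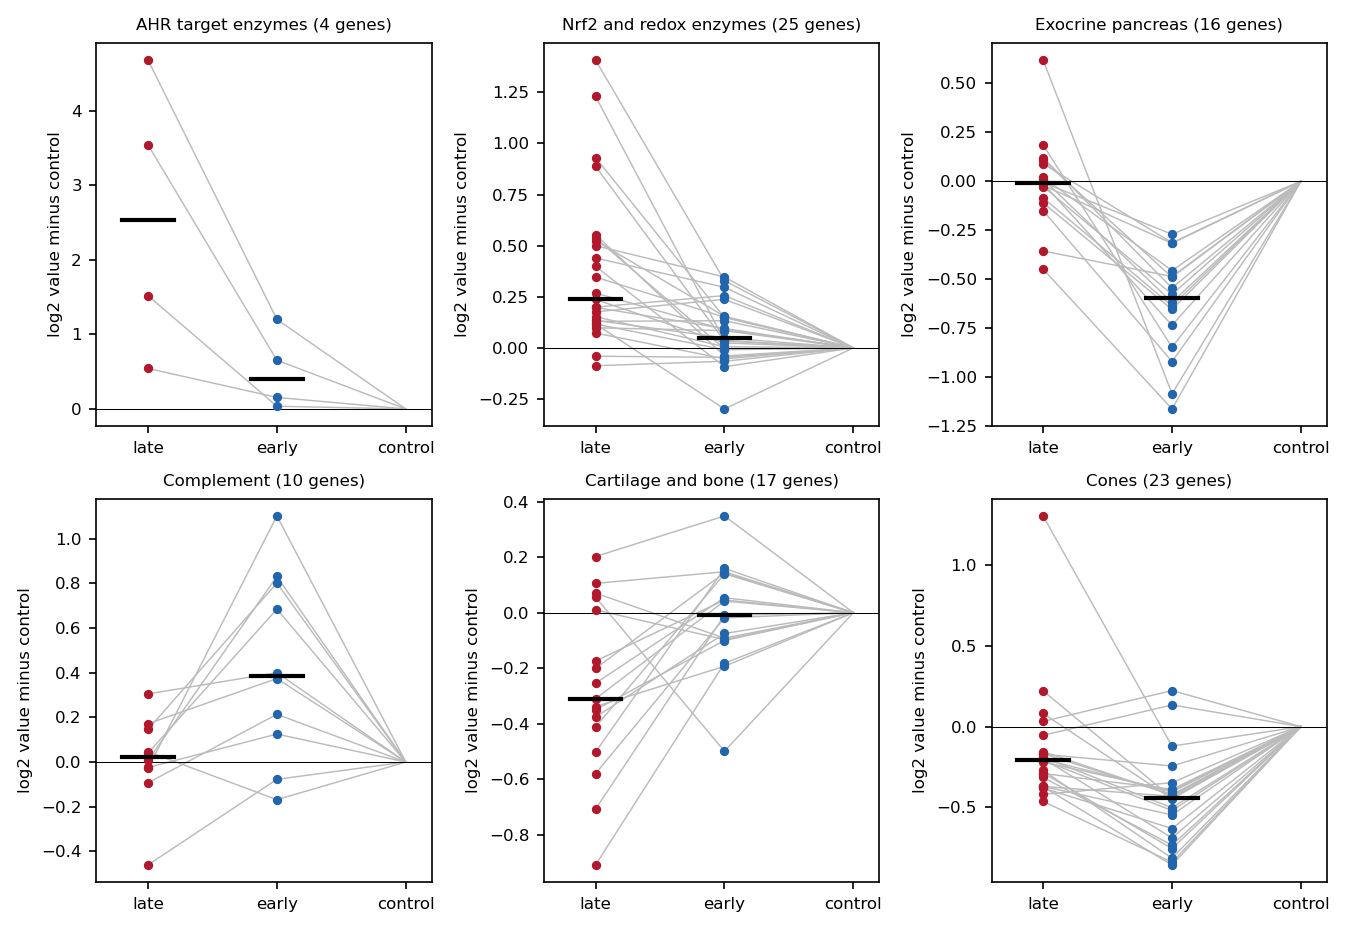
Values minus control (vertical axes, log2, scaled separately in each panel) on the late and early arrays for the members of 6 gene lists, with a line joining the 2 values of each gene. As deposited, exocrine pancreas and cone genes are mostly lowest on the early array, complement genes highest on it, and cartilage and bone genes lowest on the late array. On the spike-in scale the late points stay in place and the early points move up by 0.50: the early cone median goes to 0.06, the early exocrine pancreas median to -0.10 and the early cartilage median to 0.49, and the order of the windows turns round for the cone and Nrf2 medians.

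Of 11 heart genes 8 were lower in the late window (median -0.19). The cardiac myosin light chain gene myl7, which marks heart muscle, read 8.78 in the late window, 9.42 in the early window and 9.21 in control. The second light chain gene cmlc1 read 8.15, 8.70 and 8.42 on those arrays, and the differences in cardiac troponin T (tnnt2a) and tropomyosin (tpm4a) were -0.40 and -0.37. Of 6 slow muscle genes 5 were lower (median -0.17, with tpm3 at -0.28), whereas the 27 fast muscle genes had a median of -0.03, with mybpc2b at -0.56, acta1a at -0.46 and tnnt3a at -0.44. Ionocyte and ion transport genes had a median of -0.05 over 28 genes. The sodium pump gene atp1a1a.3 was their lowest, at 8.56 in the late window, 9.31 in the early window and 9.07 in control, followed by the carboxylate transporter gene slc13a2 (9.18 late, 9.75 early, 9.83 control), the chloride channel gene clcn2c (-0.31) and the calcium pump gene atp2b1a (-0.28, with -0.03 in its other bright probe set).

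Smaller differences marked other cell types. Erythroid genes had a median of 0.19 over 10 genes (-0.32 on the spike-in scale). The largest differences, in nt5c2l1 (0.40) and the erythroid transcription factor gene klf17 (0.39), belong to genes kept through the late array alone. Next were tspo at 0.31 and the carbonic anhydrase gene cahz at 0.27, while the hemoglobin genes hbae3 and hbbe2, named here for comparison after their values were seen, differed by 0.05 and -0.20. All 4 kept genes of the list of pituitary and hypothalamic hormones were higher on the deposited scale, avp at 0.41, gnrh3 at 0.30, gh1 at 0.22 and gnrh2 at 0.12, each of which is negative on the spike-in scale. Pigment cell genes had a median of -0.19 over 7 genes, with the purine synthesis genes atic and paics at -0.36 and -0.29 and the melanin enzyme gene dct at -0.22. Of 5 endothelial genes 4 were lower (median -0.07), led by the vessel permeability gene plvapb, at 8.96 in the late window, 9.61 in the early window and 9.59 in control. The other endothelial members were within 0.13 of 0.

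Neuronal genes had a median of 0.08 over 20 genes (-0.43 on the spike-in scale). Of their named members nrgna (0.43) and the neurofilament-like gene inaa (0.33) were higher on the deposited scale, stmn2a, a regulator of microtubules in growing axons, was at -0.29 and the neuronal sodium pump gene atp1a3b at 0.24. Myelin and glia genes split evenly (median -0.00 over 10 genes), from the myelin basic protein gene mbpa at 0.44 to fabp7a of radial glia at -0.32. Circadian clock genes split 12 to 11 (median 0.01). The largest clock difference was in nfil3-6, a repressor of clock-controlled genes, with 9.11 in the late window, 8.39 in the early window and 9.07 in control, and bhlhe40 stood at 0.36, cry1b at -0.27 and rorab at -0.25. Hair cell and otolith genes, 4 of them kept, ranged over -0.16 to 0.33, the highest being the parvalbumin gene pvalb9. One gene of the vitellogenin and hatching list was kept, the cathepsin L gene ctsl.1, which read 10.29 in the late window, 9.58 in the early window and 9.98 in control.

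Housekeeping machinery stood at nearly the same level in both windows. Medians were -0.02 for 63 heat shock and chaperone genes, -0.01 for 41 proteasome genes, -0.01 for 85 genes of oxidative phosphorylation, -0.00 for 52 genes of glycolysis and the citrate cycle, and -0.01 for 26 p53 and apoptosis genes. Single members differed more, such as idh1, an NADPH-producing isocitrate dehydrogenase, at 11.17 in the late window, 10.54 in the early window and 10.65 in control, the pyruvate kinase gene pklr at 0.51, ldhbb at -0.40, the ER chaperone gene hspa5 at -0.36 and the p53 target gadd45ga at -0.30. Ribosomal protein genes were lower in 60 of 71 cases, by a median of 0.05 in size, and none passed 0.18 in size. Of 47 cell cycle and DNA replication genes 37 were lower (median -0.10), including the replication genes mcm6 at -0.39 and uhrf1 at -0.37. On the higher side tk1 stood at 0.33 and orc2 at 0.31, the latter kept through the late array alone. Insulin-like growth factor binding protein genes had a median of -0.06 over 6 genes, with igfbp3 at -0.23 and igfbp5b at 0.19.

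Of 43 lists with at least 5 kept genes, 18 had a median above 0 and 25 below, and 22 lay within 0.1 of 0. Medians of at least 0.2 were those of CYP2 and CYP3 enzymes, ABC transporters, exocrine pancreas, intestine, cones and lens. Medians of -0.2 or less were those of complement, leukocytes, cartilage and bone, collagens and matrix, and epidermis. The lists held 899 of the 5492 kept genes, 41 of the 67 genes at least 1.5-fold higher and 19 of the 29 at least 1.5-fold lower. They were chosen with earlier results of these data known, so these counts do not measure how well they cover the differences.

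Among the 20 lowest genes, those in no group described so far were tcima, an immune response regulator gene (7.76 late, 8.50 early, 8.34 control), the mRNA-binding protein gene igf2bp1 (7.21 late, 7.93 early, 7.86 control), rcn3 of the endoplasmic reticulum (8.54 late, 9.22 early, 9.11 control), the endosomal gene ankfy1 (7.11 late, 7.76 early, 7.47 control) and the clone-named zgc:162730 (9.58 late, 10.35 early, 10.06 control). The late array was the lowest in each of them. The mitochondrial dehydrogenase gene hsd17b8 read 9.15 in the late window, 9.96 in the early window and 9.97 in control, but its second bright probe set went the other way (0.21). Just under 2-fold higher, mao read 10.62 in the late window, 9.66 in the early window and 9.42 in control, and its other bright probe sets differed by 0.45 and 0.33. The gene mala.2 read 9.39 in the late window, 8.44 in the early window and 8.32 in control.

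Probe sets of the same gene gave a check within the arrays. Of the 96 genes past 1.5-fold in either direction, 19 had another bright probe set, and 77 rest on 1 bright probe set each. Of the 25 other probe sets, 24 had the same sign and 13 were past 1.5-fold themselves. The 1 exception was hsd17b8. For cyp1c1 the second bright probe set differed by 2.73 (8.78 late, 6.05 early, 5.44 control), for cyp3a65 by 1.69, for prdx1 by 1.07 and 1.01, and for me1 by 0.73. The gene cyp1a has 1 probe set, so its difference has no such check.

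**Figure D5:**
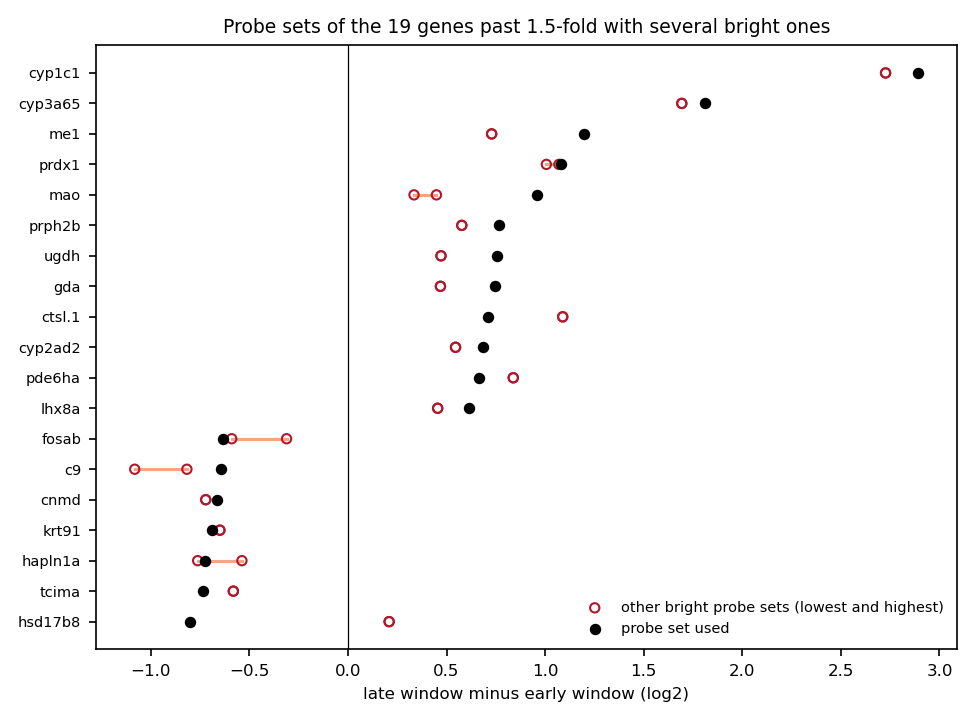
Difference between late and early window (horizontal axis, log2) of each bright probe set of the 19 genes past 1.5-fold that have several, 1 row per gene. The probe sets of a gene lie on the same side of 0 in 18 of the 19, hsd17b8 being the exception. On the spike-in scale all points would lie 0.51 further left.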

How the data were processed

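The deposited values are log2 expression values of an Affymetrix zebrafish array, made by the authors with RMA (robust multi-array average, which corrects background, equalises the arrays' distributions and summarises probes) per the submitters' processing notes. The sources used here name no software or version for it. The values of 15617 probe sets were used as deposited. Platform annotation gave 1 symbol to 10802, several to 135 and none to 4680. Entrez gene IDs matched 10718 to a RefSeq table (GRCz12tu), which updated 1 symbol. Control probe sets stayed out of the gene table. Differences between 1 array per group were counted at 2-fold, with no test. The number of arrays limits the precision. Analysis used Python 3.11.15 with pandas 2.3.3, numpy 2.4.6, statsmodels 0.14.6 and matplotlib 3.10.9. The counting was tested on simulated data.

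Named are the genes past 2-fold, the 20 highest and the 20 lowest, up to 4 members of each of 49 gene lists by size of difference, and the AHR system. The members and lists were chosen with earlier results of these data known. Name patterns were later corrected where they caught unrelated genes (such as a growth factor among hemoglobins). Alternatives were 1.5-fold and 3-fold, median centring, quantile, loess and spike-in scaling, other filters (none, the 75th percentile at 8.49, exposed arrays alone), the mean over probe sets, and no cross-hybridising probe sets. No DNA or protein sequence is shown.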

Additional observations from a re-analysis of the deposited data

Results flagged for a closer look

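Probe sets with no gene symbol, or with several, lie outside the gene comparison. Among the 5492 kept genes, 18 (0.328%) were past 2-fold on the higher side and 4 (0.0728%) on the lower side. Of 1778 such probe sets that reached the filter, 8 were past 2-fold on the higher side and 2 on the lower side. In 7 of these 10, none of which has a symbol, the high array was also at least 2-fold above control, 6 of them being higher in the late window. The largest difference was 2.02, in a probe set that read 7.53 in the late window, 5.51 in the early window and 5.49 in control. The next were 1.44 (8.22 late, 6.77 early, 6.71 control) and 1.26 (7.94 late, 6.68 early, 6.47 control). The other 3 were at 1.14, 1.06 and 1.02. In 4 of the 6, at 2.02, 1.44, 1.26 and 1.14, the filter was reached on the late array alone, so a high late value was a condition for their being counted. The last of the 7 was at -1.02 (8.36 late, 9.38 early, 8.26 control), the early array being the high one. These are values of 1 array each, without replicates, and the transcripts are unnamed here.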

How the results depend on the processing

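With median centring, quantile or loess normalization, other filters, the mean over probe sets or no cross-hybridising probe sets, 17 to 22 genes were past 2-fold on the higher side and 3 or 4 on the lower side, beside 18 and 4. At 1.5-fold the counts were 67 and 29, at 3-fold 5 and 1, and on the spike-in scale 6 and 58. None of the 22 genes past 2-fold changed sign. With the mean over probe sets me1 stood at 0.96 and cyp1c1 at the lowest of its values, and with median centring faxdc2 fell just short of 2-fold. On the spike-in scale 58 of the 195 named genes and 17 of 43 list medians changed sign, against at most 1 gene and 7 medians under any other setting. The cause was not tested. No paired analysis was possible because each group has 1 array. Of the 5492 genes 89 reached the filter on the late array alone, 33 on the early array alone and 58 on control alone. Genes near the filter rest on dim signal, which limits what their differences show.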

Other observations

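Several further genes of mixed metabolic function, chosen after their values were seen, were higher in the late window on the deposited scale and the spike-in scale. The dehydrogenase gene dhrs11b.2 read 10.95 in the late window, 10.06 in the early window and 10.18 in control, and the carbonyl reductase gene cbr1l 10.18, 9.40 and 9.19 on those arrays. Guanine deaminase (gda), selenbp1 and aoc1, a diamine oxidase, differed by 0.74, 0.65 and 0.59. The other bright probe set of gda differed by 0.47, which is under the spike-in mean of 0.51.

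Among the 3301 genes too dim to be kept, 4 were at least 2-fold higher in the late window and 0 at least 2-fold lower. The chemokine gene ccl27a read 6.55 in the late window, 5.16 in the early window and 5.19 in control, and tmigd1, jac1 and si:dkey-286h2.3 differed by 1.02, 1.42 and 1.07. A probe set shared by the C3 copies c3a.3 and c3a.2, kept out of the gene table because it carries several symbols, differed by -1.09 (6.95 late, 8.04 early, 7.07 control), with the early array high as in c3a.1 and c4b. This probe set reached the filter on the early array alone, so a high early value was a condition for its being counted.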
